A study of Mus musculus with 14 samples.

Results

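Amy1, Amy2, Bpifa2, Pip, Prb1 and Dnase1 were grouped as secretory genes of salivary and lacrimal glands and followed here over 12 mammary tumours. Amy2 stands for the pancreatic amylases, and which gland makes each of the 6 was not examined. The 6 genes were chosen by symbol in the platform annotation, with their high values in 1 of the tumours already known. Their levels in these tumours are therefore a description without a test. All 6 were on the array, each with 1 probe and a value on all 14 arrays, out of 16879 genes named from 18658 probes. No filter on low values was used.

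The tumours were mammary tumours of Brg1+/- mice, which are heterozygous for the gene that encodes Brg1, the motor subunit with which SWI/SNF complexes move nucleosomes. On every array the Cy5 channel held total RNA of 1 tumour and the Cy3 channel a common mouse reference RNA. The tumours are T2134, T372, T172, T284, T135, T160, T176, T2023, T221, T55, T646 and T920. T172 and T284 had 2 arrays each, the second labelled as a biorep without further detail, and the other 10 tumours had 1 array. The sample names begin with MIXED, which the labels do not explain, and give no strain by name, age or treatment, and no tumour of another genotype was analysed. Values are log2 ratios of tumour over reference, so 0 means the level of the reference RNA. The arrays had 22501 to 22566 values each, with medians between 0 and 0.018. The ratios carry no signal intensity, so a ratio near the background of the array cannot be told from a measured low level. The values of T2134 all come from 1 array.

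Salivary and lacrimal glands are exocrine: acinar cells make large amounts of secretory protein, store it in granules and release it on nerve stimulation. Amylases digest starch, the abundant proteins of saliva coat and protect the mouth, and kallikreins of the ducts process secreted peptides. The mammary gland is also an exocrine gland of the skin, whose main secretion is milk protein. Some proteins, such as Pip, were first known from human mammary cancer cells under hormone stimulation and are also made by salivary and lacrimal glands.

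Sequences before the annotated starts are printed because these genes, 5 of which lie on chromosomes 2, 3, 6 and 16, were high in the same tumour. RefSeq (GRCm38.p6) gave 7 starts for 5 of the 6 genes. Amy2 had none under that name. The 150 bases before 6 of the starts follow, 5′ to 3′ on the gene's own strand, with TATAA, the core of the TATA box, in capitals where it occurs on either strand (TATAA or TTATA; overlapping matches run together).
Amy1, first start, chr3:113577751-113577900, minus strand: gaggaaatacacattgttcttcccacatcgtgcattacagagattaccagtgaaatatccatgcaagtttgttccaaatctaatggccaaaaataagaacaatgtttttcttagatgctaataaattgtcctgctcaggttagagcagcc
Amy1, second start, chr3:113574763-113574912, minus strand: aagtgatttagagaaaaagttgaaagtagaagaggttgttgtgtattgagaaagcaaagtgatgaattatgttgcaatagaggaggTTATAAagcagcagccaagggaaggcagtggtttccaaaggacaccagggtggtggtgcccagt
Bpifa2, chr2:154008126-154008275, plus strand: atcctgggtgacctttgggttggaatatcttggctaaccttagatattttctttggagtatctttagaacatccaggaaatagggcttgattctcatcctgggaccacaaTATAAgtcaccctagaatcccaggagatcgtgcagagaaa
Pip, chr6:41847399-41847548, plus strand: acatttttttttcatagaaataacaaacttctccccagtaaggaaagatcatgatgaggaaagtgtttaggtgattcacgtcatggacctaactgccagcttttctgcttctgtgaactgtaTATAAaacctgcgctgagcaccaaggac
Prb1, chr6:132210522-132210671, minus strand: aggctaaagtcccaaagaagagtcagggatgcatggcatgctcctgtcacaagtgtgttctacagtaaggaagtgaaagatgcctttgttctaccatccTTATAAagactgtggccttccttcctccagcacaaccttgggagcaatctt
Dnase1, first start, chr16:4036886-4037035, plus strand: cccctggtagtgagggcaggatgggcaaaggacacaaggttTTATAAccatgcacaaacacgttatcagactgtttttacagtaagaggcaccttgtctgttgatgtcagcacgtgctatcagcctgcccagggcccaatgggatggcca
The second start of Dnase1 overlaps this last window and holds no match.

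TATAA was found in 5 of the 7 windows, against 14.2% of the windows before 32851 annotated starts. Its last match began 28 bases before the start of Pip, 40 before that of Bpifa2, 50 before that of Prb1, 63 before the second start of Amy1 and 108 before the first start of Dnase1 in the promoter table. RefSeq's gene table begins Dnase1 earlier, so 78 bases of that window lie inside the gene, and the match is 30 bases before that earlier start. By the same table, all 150 bases before the second starts of Amy1 and Dnase1 lie inside the genes, so the match of Amy1 does too. On the gene's own strand and within the last 40 bases TATAA was present in the windows of Pip and Bpifa2, 2 of the 7, against 4.23% of all windows. The match of Dnase1 would join them if counted from the start in the gene table. The E-box letters CAGCTG occurred in 0 of the 7 windows (8.39% of all) and CATATG in 0 of the 7 (1.83% of all). These matches describe letters only.

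Amy1 encodes the amylase of salivary gland and liver. It had a log2 ratio of 3.53 in T2134. In the other 11 tumours it ran between -4.05 in T135 and -0.73 in T372, with a median of -3.16. No other tumour reached the level of the reference RNA, and T2134 stood 6.57 above the mean of the others (-3.04 ± 0.909, SD, n = 11), a 95.0-fold difference. Amy2 stands for the pancreatic amylases, and its level was 3.38 in T2134. The other 11 tumours had values of -3.99 in T135 to -1.88 in T372, with a median of -3.10. The distance from their mean (-3.12 ± 0.619, SD, n = 11) was 6.50, or 90.6-fold. The name Amy2 is a synonym of 5 RefSeq genes. Amy2 genes lie directly before Amy1 on chromosome 3, so which copies each of the amylase probes detected cannot be told apart from these values.

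Bpifa2, the parotid secretory protein of saliva, had a log2 ratio of 2.11 in T2134. Among the other 11 tumours the lowest was -5.65 in T920, the median -4.29 and the highest -1.25 in T372. The single array of T2134 was above every other tumour, and the difference from the mean of the others (-4.06 ± 1.10, SD, n = 11) was 6.17, or 72.1-fold. Pip, the prolactin-induced protein, had a value of 2.02 in T2134. The other 11 tumours lay between -4.77 in T135 and -2.31 in T372, with a median of -3.92. T2134 was again the only tumour above the reference RNA, 5.75 or 53.8-fold above the mean of the others (-3.73 ± 0.764, SD, n = 11). Prb1 belongs to the proline-rich proteins of saliva. Its log2 ratio was 2.97 in T2134, and the other 11 tumours lay in a narrow band, from -1.15 in T920 over a median of -0.78 to -0.07 in T221. This gave the smallest difference of the 6 genes, 3.62 or 12.3-fold above the mean of the others (-0.65 ± 0.349, SD, n = 11).

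Dnase1 encodes a secreted endonuclease, for which the parotid gland is among the main sources. At 5.63 its log2 ratio in T2134 was the highest of the 6 genes against the reference. The other 11 tumours had values of -0.95 in T284 to 1.60 in T372, with a median of -0.59. The difference from their mean (-0.39 ± 0.744, SD, n = 11) was 6.02, or 65.1-fold. Besides T2134, T372 and T172 (mean of its arrays 0.34) were above the reference RNA for Dnase1, and the other 9 tumours below it.

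**Figure D1:**
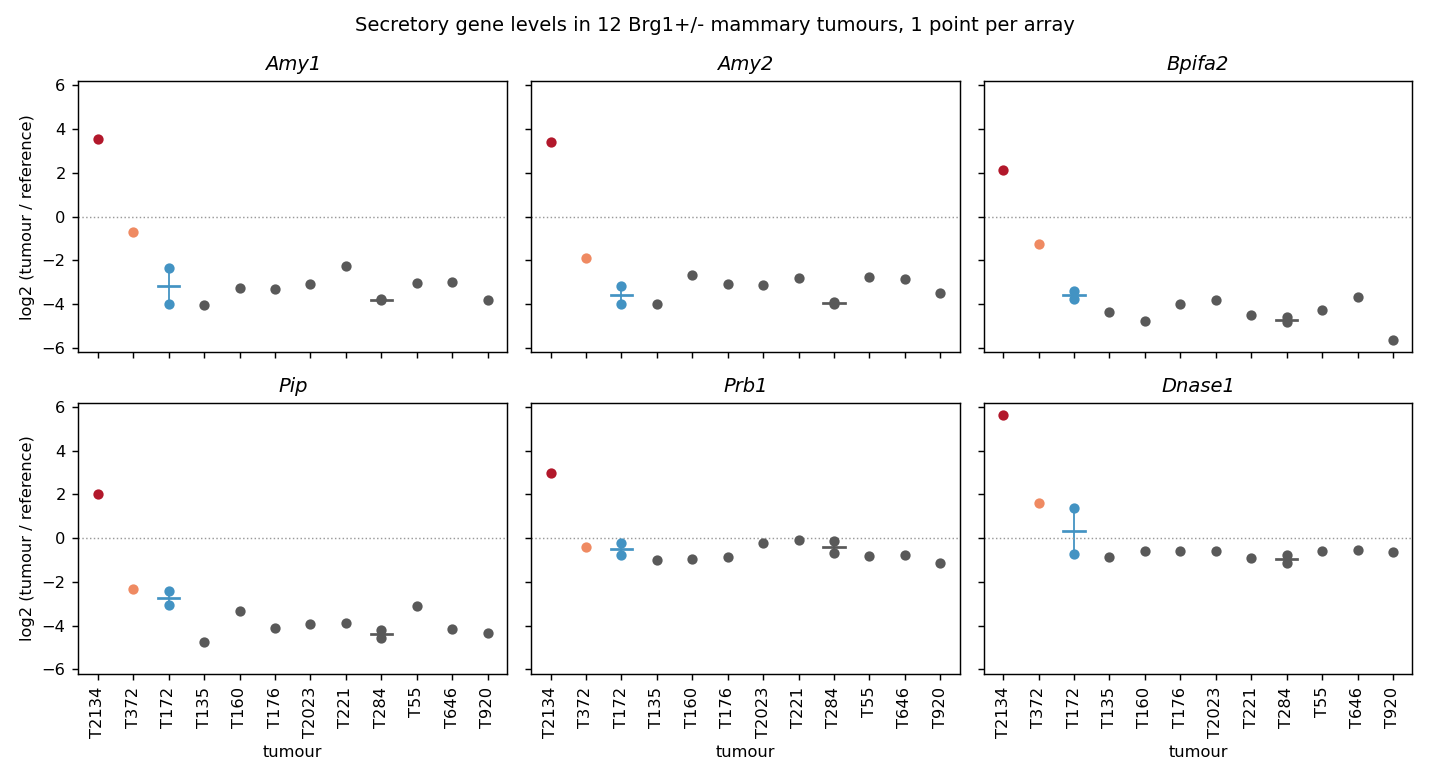
Log2 ratio of tumour over reference RNA (y axis) of the 6 genes in each tumour (x axis), 1 point per array, with a bar for the mean of the 2 arrays of T172 and of T284. T2134 lies above 2 for every gene, T372 is the next highest for 5 of the 6, and the 2 arrays of T172 are far apart for Amy1 and Dnase1.

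Below T2134, the order of tumours was not the same for all 6 genes. T372 was second for Amy1, Amy2, Bpifa2, Pip and Dnase1. For Prb1 the second was T221 (-0.07), and T372 had -0.39, inside the band of the other tumours. T2134 exceeded the second tumour by 3.03 for Prb1 to 5.26 for Amy2, more than any difference between 2 arrays of 1 tumour for the same gene (at most 2.10). The genes were chosen for being high in T2134, which has 1 array, so nothing is read from that comparison. T372 exceeded the third tumour by 2.33 for Bpifa2, where paired arrays differed by at most 0.37. For the other 4 genes in which it was second, its distance was 0.44 for Pip, 0.81 for Amy2, 1.25 for Dnase1 and 1.54 for Amy1, in each case less than the 2 arrays of T172 differed. Without T2134 and T372, the remaining 10 tumours spanned 1.08 for Prb1 to 2.07 for Bpifa2, and neighbours in their order differed by less than the 2 arrays of T172 did, except for Bpifa2, where T920 (-5.65) lay apart below T160 (-4.79). The 2 arrays of T284 were closer for Amy1 (0.04), Amy2 (0.06), Pip (0.36) and Dnase1 (0.37), where the widest gaps between neighbours (0.75, 0.39, 0.56 and 0.91) exceeded them.

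The second arrays gave the only measure of spread within a tumour. In T172 all 6 genes were higher on the second array. Dnase1 had 1.39 on the second and -0.71 on the first array, and Amy1 had -2.34 and -3.99. The differences of Amy1 and Dnase1 (1.65 and 2.10) were larger than those of 99.5% and 99.9% of all genes in the same pair of arrays. Amy2 (0.82), Pip (0.66), Prb1 (0.57) and Bpifa2 (0.37) differed less. The median absolute difference was 0.742 for the 6 genes and 0.306 for all genes, of which 46.9% were higher on the second array. In T284, by contrast, 2 of the 6 were higher on the second array and the median absolute difference was 0.299, against 0.338 for all genes. Milk genes also differed between the arrays of T172, with a mean ratio of 2.46 on the second and 1.14 on the first; their part in the difference of the 6 genes was not tested. The salivary list described below averaged 0.23 on the second and 0.17 on the first array.

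Correlations between the 6 genes over 12 tumours describe the same pattern, since T2134 sets most of each line. The 15 pairs had Pearson's r between 0.89 and 0.98, with a median of 0.95. Without T2134, r over 11 tumours ranged from 0.22 for Prb1 with Dnase1 to 0.87 for Bpifa2 with Dnase1, with a median of 0.67. Amy1 and Amy2 kept an r of 0.87. With T372 left out as well, the median over 10 tumours was 0.39, and the highest values were 0.77 for Amy1 with Amy2 and 0.74 for Pip with Dnase1. All tumours share the reference RNA and the dye orientation, and no p is given for these values.

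The genes whose pattern over the 12 tumours was most like that of the 6 were sought among 5398 other genes with an SD over tumours of at least 0.5. The measure was Pearson's r with a score, for which each of the 6 genes was centred on its own mean over the tumours and the 6 were then averaged. The score was 5.29 in T2134, 1.19 in T372, -0.19 in T172 and between -1.16 and -0.39 in the other 9 tumours. The 8 highest were Klk1b8 (r = 0.97), Gm4736 (0.96), Chia1 (0.96), Bpifb1 (0.96), Klk1b5 (0.96), Klk1 (0.95), Olfr433 (0.90) and Gphb5 (0.90). Klk1, Klk1b5 and Klk1b8 are glandular kallikreins, serine proteases of salivary gland ducts. Chia1 is the acidic chitinase, and Bpifb1 a secreted protein of the same fold family as Bpifa2. Over the 11 tumours without T2134, r was 0.84 for Klk1, 0.82 for Klk1b5, 0.81 for Klk1b8, 0.77 for Gm4736 and 0.39 for Olfr433. When T2134 and T372, the tumours farthest from the median score, were both left out, 1 of the 8 (Klk1b5, r = 0.92 over 10 tumours) was still among the 8 highest.

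By gene, the highest r was with Gm4736 for Amy1 (0.96) and Prb1 (0.95), with Bpifb1 for Amy2 (0.98), with Klk1 for Bpifa2 (0.94), with Klk1b8 for Pip (0.98) and with Chia1 for Dnase1 (0.97). Pip with Klk1b8 still had r = 0.90 over the 11 tumours without T2134. For Amy2 with Chia1, which had 0.95 over all 12, it was 0.39. The map of the 6 genes and the 8 most alike shows the high column of T2134.

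**Figure D2:**
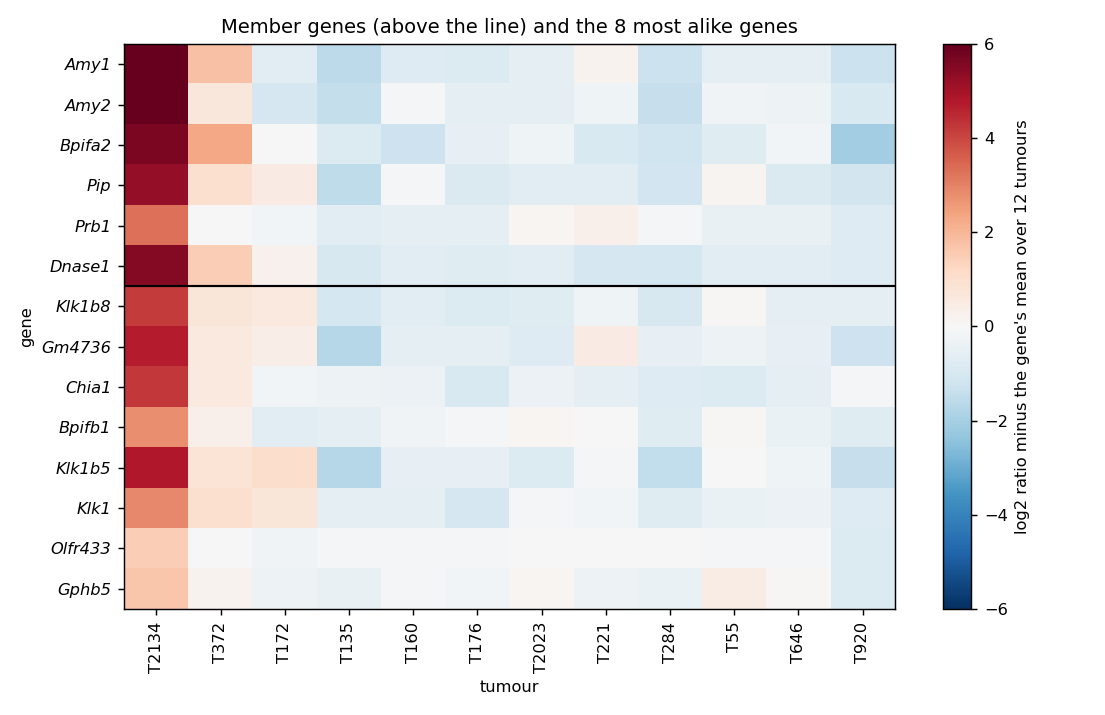
Colour map of log2 ratios, centred on each gene's mean over the 12 tumours, for the 6 genes (above the line) and the 8 genes most like them (below), with tumours in columns. T2134 is the darkest column for all 14 genes, and T372 is raised for most of them.

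Differences between T2134 and the mean of the other 11 tumours were tested for every gene with limma's moderated test, with p-values adjusted after Benjamini-Hochberg over all genes. Of 16848 genes, 14 were called higher in T2134 (0.0831%) and 4 lower (0.0237%) at an adjusted p under 0.05. The 6 genes make up 6 of the 14, and since they were chosen for this difference nothing is read from that. The remaining 8 higher genes include Klk1b5, which had 2.95 in T2134 and -3.59 to -0.78 in the other tumours, a difference of 5.25 ± 0.85 (SE, adjusted p = 0.0398). Gm4736 had 2.95 in T2134 and -3.47 to -1.19 in the others (5.16 ± 0.68, adjusted p = 0.00628). Chia1, an enzyme that cleaves chitin, had 4.68 in T2134 and -0.46 to 1.04 in the others (4.63 ± 0.43, adjusted p = 0.000349). Klk1b8 had 3.45 in T2134 and -1.83 to -0.05 in the others (4.60 ± 0.58, adjusted p = 0.00493). Bpifb1 had 0.27 in T2134 and -3.26 to -2.25 in the others (3.06 ± 0.39, adjusted p = 0.00493). In none of these 5 did another tumour reach T2134. Klk1b5 lost its call under 10 of 19 alternative settings, namely without the second array of T172, the first of T284, or any of T160, T176, T2023, T221, T284, T55, T646 and T920 (adjusted p up to 0.0877, limma). The other 4 kept theirs in all 19.

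The other 3 higher genes were Chil5, Gfap and Orm2, named here after their values were seen, with differences of 2.35, 1.75 and 1.58 (adjusted p = 0.0494, 0.0387 and 0.0387, limma). Each of them lost its call under 9 or more of the 19 alternatives. Of the 4 lower genes, the largest difference was that of the olfactory receptor gene Olfr1490, at -3.43 in T2134 and -0.26 to 0.46 in the others (-3.57 ± 0.26, adjusted p = 7.0e-05, limma). Lelp1, Olfr1453 and Olfr857, also named after their values were seen, were lower by -3.32, -2.87 and -2.21. Olfr433, among the most alike genes, had 1.59 in T2134 and -0.69 to 0.16 in the others but missed the threshold (adjusted p = 0.0647, limma).

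Some of these genes lie beside the 6 on the chromosome. Gm4736 is the gene next to Prb1 on chromosome 6. Bpifb1 lies 4 genes from Bpifa2 on chromosome 2. Within 6 protein-coding genes on either side, 5 neighbours of Prb1 were measured and 2 were higher in T2134 than in every other tumour, Gm4736 and Prp2, another proline-rich protein gene (1.40 in T2134, -0.23 to 0.69 in the others). The 2 probes of Prp2 did not give the same picture, with 2.28 and 0.52 in T2134 and the highest value in T2134 for the first of them only. For Bpifa2, 9 neighbours were measured and 2 were highest in T2134, Bpifb1 and Bpifb5 (1.41 in T2134, -2.93 to 0.24 in the others, adjusted p = 0.644, limma). Bpifa1, the airway relative of Bpifa2 and 2 genes away from it, was at -2.63 in T2134 and -2.85 to -2.29 in the others. None of the measured neighbours was above all other tumours in T2134 for Amy1 (6 measured), Pip (9) or Dnase1 (12). Over all genes 5.2% were highest in T2134. The 6 measured for Amy1 all lie on the same side of it. Those on the other side are amylase genes (Amy2b and Amy2a1 to Amy2a5) without a value under their own names. The Amy2 probe, which may detect some of them, had 3.38 in T2134, so Amy1 is not shown to be high alone at its place. The seminal vesicle relatives of Pip beside it stayed within the range of the other tumours, Sval2 at 0.50 (0.07 to 1.05), Sval1 at -0.86 (-1.42 to -0.58) and Sva at 0.58 (-0.08 to 0.94).

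A list of 27 other salivary secretory genes, of which 19 were measured, includes the neighbours Bpifa1, Bpifb1, Bpifb2, Prh1, Prp2 and Sval2, so it is not separate from them. By limma's F-test between the 12 tumours, 10 of the 19 (52.6%) were called, against 18.4% of all genes tested. In T2134, 14 of the 19 were above the mean of the other 11 tumours, 8 were highest there, and the median difference was 0.54, against -0.02 over all genes. Bpifb1 alone was called in T2134 after adjustment, while 8 of the 19 had a higher level with an unadjusted p under 0.05, as did 1.12% of all genes. Cst10, a cystatin, had 5.07 in T2134, 1.15 in T372, 3.93 in T172 and -1.70 to -0.25 in the other 9 tumours (F-test adjusted p = 0.000134, limma). Smr3a, a submaxillary gland protein gene named after its values were seen, had 3.07 in T2134, 1.65 in T372, -0.19 in T172 and -1.78 to 0.74 in the others. Not every salivary gene was highest in T2134. Dcpp1, a demilune cell and parotid protein, had 0.83 in T2134 and 2.04 in T172, with -5.62 to -2.29 in the 9 tumours other than these and T372 (-3.52). Car6, the secreted carbonic anhydrase of saliva, had 0.56 in T2134, 2.43 in T172 and 2.64 in T284. Cldn10, a tight junction protein, had -1.99 in T2134 and 3.92 in T172.

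Of 14 glandular kallikreins, 10 were measured and 8 (80%) were called between tumours, 5 when T172 was left out. Klk1b5 and Klk1b8 were called higher in T2134, where the median difference of the list was 0.32. Klk1, which is also in the salivary list, had 2.33 in T2134 and -1.57 to 0.42 in the other tumours (difference 3.15 ± 0.60, adjusted p = 0.127, limma). Its 2 probes disagreed, with 3.78 and 0.88 in T2134, and the second of them was highest in T2023. Klk1b11 was -1.56 in T2134 and 2.84 in T172, and Klk1b16 was -2.62 in T2134 and 0.24 in T172, so 5 of the 10 kallikreins were highest in T172 (7.28% of all genes) and 3 in T2134. Both of these were called in the comparison of T172 with the other 11, in which 0.0533% of all genes were called higher. Mouse kallikreins are close copies of each other, and how far each probe detects its relatives was not tested.

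**Figure D3:**
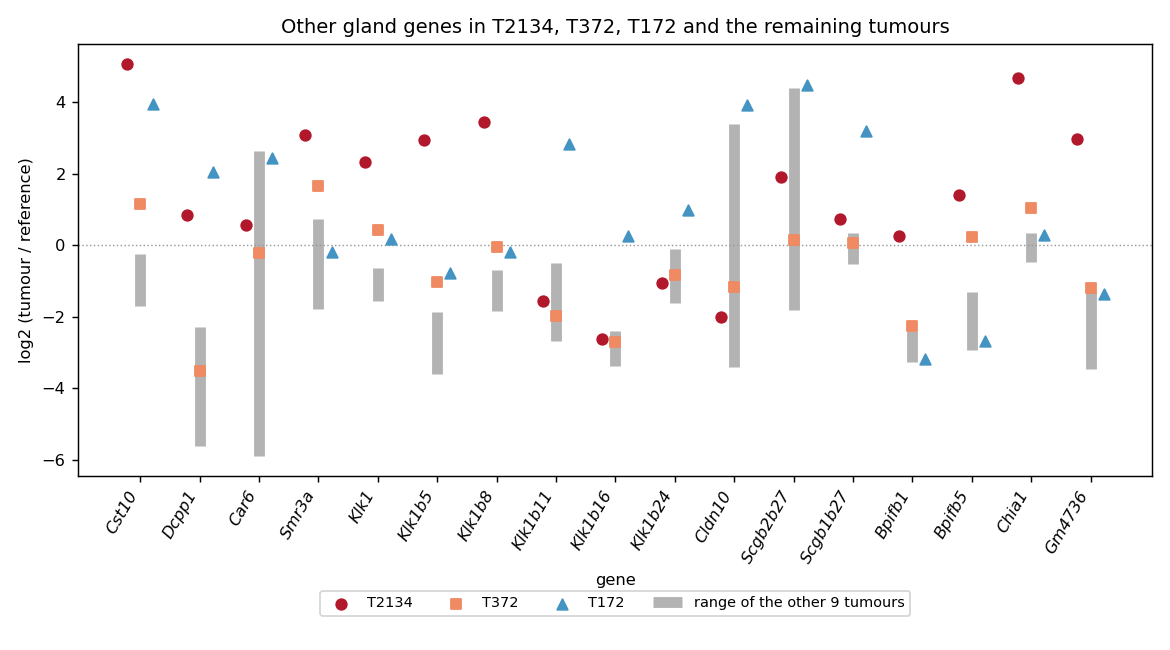
Log2 ratio of tumour over reference RNA (y axis) of 17 genes (x axis) in T2134 (circles), T372 (squares) and T172 (triangles). Grey bars give the range of the other 9 tumours. The genes were picked with their values known, and Chia1 and Gm4736 are in none of the gland lists. Among measured gland genes not drawn, Prh1 (0.07), Bpifa1 (-2.63) and Klk1b1 (-0.04) in T2134 lay within the range of the other tumours. Klk1b5, Klk1b8, Chia1, Gm4736 and Bpifb1 are above all other tumours in T2134, whereas Klk1b11, Klk1b16 and Scgb1b27 are above all others in T172.

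Lists for related glands and for the secretory machinery were read in the same way. Of the lacrimal and Harderian secretory genes, 14 of 27 were measured, 6 (42.9%) were called between tumours, and 1 was highest in T2134, with a median difference of 0.34. None of the 14 was called in T2134 by limma, and 1 had an unadjusted p under 0.05. Wfdc12 had 2.97 in T2134 and 4.14 in T221, and Ltf, lactoferrin, had 3.42 in T2134 and 4.84 in T135. Of 24 measured exocrine pancreas genes, 2 (8.33%) were called between tumours, Reg1 and Sycn, and the median difference in T2134 was 0.19. In T2134, 17 of the 24 pancreas genes were above the mean of the other tumours. Of the 22 with a value in every tumour, 5 were highest in T2134, as were 5.2% of all genes. None was called in T2134, and 1 had an unadjusted p under 0.05. Sycn, a protein of zymogen granules, had 2.11 in T2134, against 1.35 in T55, the next highest (F-test adjusted p = 0.0121, limma; 0.0736 without T2134). The mean ratio of the pancreas list was -0.54 in T2134, within -1.05 to -0.45 in the others.

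Transcription factors of acinar cells control the secretory programme. The list read for them is neither limited to acinar cells nor complete. Elf5 is also among the luminal epithelium markers below, and Ptf1a, Rbpjl and Nr5a2 were placed in the pancreas list. Of its 17 measured genes, 10 (58.8%) were called between tumours. Xbp1, a factor of secretory cells named after its values were seen, was the 1 gene highest in T2134, at 2.89. The median difference in T2134 was 0.09, and 0 of the 17 passed either the adjusted threshold or an unadjusted p under 0.05 there (limma). Elf5 had 4.46 in T2134 and Ehf 3.80, with -2.23 to 4.83 and -0.56 to 4.43 in the others. The stimulus-secretion and fluid secretion list had 9 of 22 genes (40.9%) called between tumours, none highest in T2134, and a median difference of -0.07. There, 0 of its genes were called in T2134 and 0 had an unadjusted p under 0.05 (limma). Aqp5, the water channel of salivary acini, had 0.53 in T2134, against -2.52 to 4.44 in the others. Ano1, the chloride channel of acinar cells, had 2.26 in T2134, against 0.29 to 4.49.

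Close relatives of single genes were also measured. The 7 other DNases and nucleases had a median difference of -0.03 in T2134, with 0 called and 0 at an unadjusted p under 0.05 (limma), and none was highest there. Dnase2a, the lysosomal acid DNase, was the 1 gene of them called between tumours (14.3%), at 2.40 in T2134 and -1.30 to 3.53 in the others. Of the BPI fold family, 12 were measured besides Bpifa2 and 5 (41.7%) were called between tumours, with a median difference of -0.00 in T2134 and Bpifb1 as the call there. Of these, 3 (Bpifb5, Bpifb1 and Lbp) had their highest value in T2134, as did 5.2% of all genes. Lbp had 2.04 in T2134 and 2.02 in T172, whose first array was higher than T2134, at 2.55. Bpifc was at -1.05 in T2134 and 2.53 in T221. The apocrine and androgen response list, set beside Pip, had 6 of 12 genes (50%) called between tumours and a median difference of 0.16. In this list 3 of the 12 genes were highest in T2134. None of its genes was called in T2134 (limma; 1 at an unadjusted p under 0.05), and Tmprss2 had 2.45 in T2134 and -1.08 to 2.32 in the others.

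**Figure D4:**
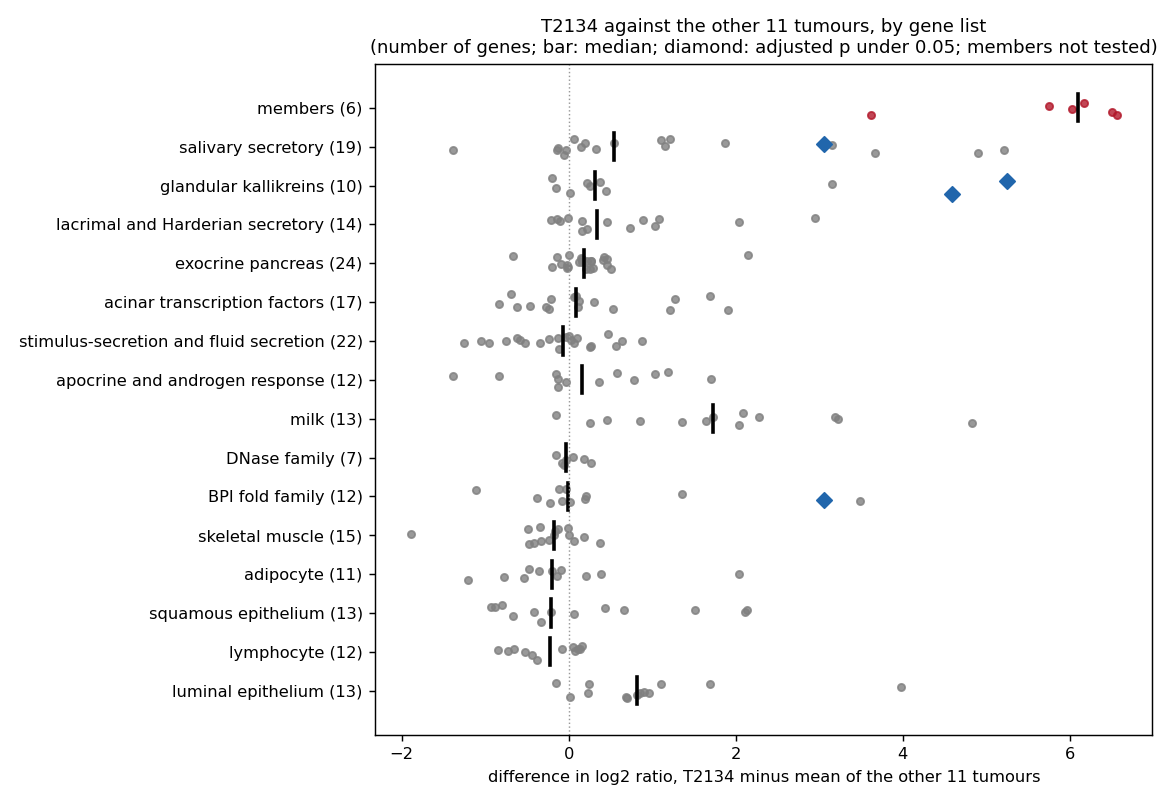
Difference in log2 ratio between T2134 and the mean of the other 11 tumours (x axis) for the 6 genes (top row, called members, not tested) and the measured genes of 15 lists (rows, number of genes in brackets), with a bar for the median and a diamond where the adjusted p was under 0.05. The 6 genes lie between 3.62 and 6.57, and the list medians between -0.23 and 1.73.

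Markers of milk and of other tissues were read in the same way. By the F-test, 76.9% of measured milk genes, 84.6% of luminal epithelium, 100% of squamous epithelium and 72.7% of adipocyte genes were called between tumours. For lymphocyte genes the share was 50%, for skeletal muscle genes 26.7% and over all genes 18.4%. High shares were therefore not limited to the gland lists. Milk genes had the highest list median in T2134, 1.73, with 12 of 13 genes above the mean of the others. Their mean ratio was 3.47 in T2134, against -0.06 to 3.43 in the others, of which T55 was highest. Csn2, beta-casein, had 7.42 in T2134, 6.90 in T55 and 5.77 in T372. No milk gene was called in T2134 (limma; 1 at an unadjusted p under 0.05), and the part of milk protein expression in the levels of the 6 genes was not tested. T55 had milk genes at nearly the same mean as T2134, and its values were -3.02 for Amy1, -2.78 for Amy2, -4.29 for Bpifa2, -3.08 for Pip, -0.80 for Prb1 and -0.59 for Dnase1. Luminal epithelium markers had a median difference of 0.82 in T2134 and a mean ratio of 1.90, against -2.41 to 1.97 in the others. Krt18 was at 2.59 and Epcam at 2.30 in T2134, both markers of glandular epithelium in general, which do not tell mammary from salivary or lacrimal cells. Skeletal muscle genes averaged -3.60 in T2134 (-3.82 to -1.77 in the others), adipocyte genes -3.11 (-3.74 to -1.29), squamous epithelium genes -0.74 (-2.94 to 1.90) and lymphocyte genes -0.39 (-0.61 to 0.95). For these 5 lists 0 genes were called in T2134 by limma and 0 had an unadjusted p under 0.05. In bulk RNA, more cells of a type and more RNA per cell cannot be told apart.

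T372 was the second tumour for 5 of the 6 genes. Its comparison with the rest uses tumours that also enter that of T2134, so the values are set side by side only. The salivary list had a median difference of 0.15 in T372 and the kallikreins 0.21, with 0 genes of either called and 0 at an unadjusted p under 0.05 (limma; over all genes 0.0535% were called higher). Chia1 was at 1.04 in T372, Klk1 at 0.42 and Klk1b8 at -0.05, each the highest after T2134 once probes and second arrays were averaged. For Klk1 the order held on neither probe. On the first probe T172 (-0.23) was above T372 (-0.38). On the second, T2023 (1.32) and T372 (1.225) were both above T2134 (0.88). For Klk1b8 the second array of T172 was above T372. The lymphocyte list had a median difference of 0.90 in T372 and the squamous list 0.73, with 0 genes of either called and 1 lymphocyte gene at an unadjusted p under 0.05 (limma). Milk genes had 0.65, with 0 called and 1 at an unadjusted p under 0.05 (limma). The part of these cell types in the levels of the 6 genes in T372 was not tested.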

How the data were processed

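RNA of 12 mammary tumours was measured on 14 two-colour arrays. The authors deposited 1 value per probe and array, read as a log2 ratio of tumour (Cy5) over a common reference (Cy3); the direction comes from the dyes per the labels, and values of -9.19 to 7.42 were taken to mean base 2. The sources used here do not give the scanner, background correction or normalization. All arrays share 1 dye orientation, so a dye effect is part of each ratio but cancels between tumours. The lowest correlation between 2 arrays over all probes was 0.465. Of all values, 0.172% were missing.

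Of 22575 probes, 18658 had 1 gene symbol in the platform annotation. Symbols were updated through the RefSeq gene table of GRCm38.p6, by Entrez identifier for 18445 probes and by accession for 24; 189, that of Amy2 among them, kept the symbol of the annotation. Probes of a gene were averaged, giving 16879 genes, and no further normalization was applied. A gene entered the tests with values on at least 12 arrays, among them both of T172 or both of T284, which left 16877.

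The 6 genes were followed without a test. For all genes, limma 3.58.1 (R 4.3.3) fitted a factor of 12 tumours to 14 arrays (moderated F-test; prior 7.27 degrees of freedom, SD 0.313), with the spread within a tumour from the second arrays. Each tumour was also compared with the mean of the other 11, with second arrays averaged into their tumour, and the lone tumour assumed to vary like the rest. P-values were adjusted after Benjamini-Hochberg and called under 0.05. Nothing in the labels says whether a biorep came from a separate piece or animal, so the spread behind the F-test may be technical. The comparison of 1 tumour with the other 11 uses the spread among those 11 tumours instead. In both, the number of arrays limits the precision. On simulated data of 16474 genes, used to test these steps, the F-test called 98 of 100 genes whose SD between tumours was 2, and 9 of 16274 unchanged genes. The comparison of T2134 called 100 of 100 genes shifted by 4, and 1 of 16374 others. How often such a shift is called in a gene that varies among the other 11 tumours was not tested. Among the measured genes, Cst10 (difference 5.22 ± 1.41, SE) and Dcpp1 (4.905 ± 2.09) were not called in T2134. Klk1b5 (5.25), Gm4736 (5.16), Chia1 (4.63) and Klk1b8 (4.60) were called, so a gene without a call is not shown to be unchanged. Tables and figures were made with Python 3.11.15, numpy 2.4.6, pandas 2.3.3 and matplotlib 3.10.9.

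The 6 genes, the 15 gene lists and the comparisons were chosen with earlier results of these data known. Genes named besides the 6 are up to 4 per list called by the F-test with the largest SD over tumours, list genes called in a tumour, the genes most like the score (8) or each gene (3), and the 5 largest differences called in T2134. Chromosomal neighbours stand outside this rule, as do genes marked as named after their values were seen. Alternatives were quantile normalization, 1 probe per gene, genes on all arrays, a robust prior, and leaving out arrays, tumours or genes of the score.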

Additional observations from a re-analysis of the deposited data

How the results depend on the processing

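No paired analysis was possible because the labels do not pair samples across tumours, and T172 and T284 alone have a second array. The difference between T2134 and the mean of the others stayed within 6.47 to 6.80 for Amy1, 6.42 to 6.65 for Amy2, 6.01 to 6.45 for Bpifa2, 5.65 to 5.90 for Pip, 3.57 to 3.85 for Prb1 and 5.60 to 6.22 for Dnase1 over 19 alternatives. Glandular kallikreins called between tumours numbered 8, and 5 without T172 (5 to 8 over all leave-outs). Of the 8 most alike genes, 1 was among the 8 highest without T2134 and T372. Scores that left out any 1 of the 6 genes kept all 8. Those scores still held the high values of T2134 for which the genes were chosen, so nothing is read from that. Genes called between tumours numbered 3104, with 2520 (without T176) to 4176 over alternatives, and genes called in T2134 numbered 18, with 12 (without T160) to 21. In T372 the count was 10, and 4 to 21 over alternatives. Exocrine pancreas genes called between tumours numbered 2 (up to 4), DNases 1 (0 without T176), skeletal muscle genes 4 (0 without T55) and adipocyte genes 8 (4 without T221). F-test calls of genes high or low in T2134 were lost without that tumour for Klk1b8 (adjusted p = 0.0659), Chia1 (0.529), Bpifb1 (0.689), Gphb5 (0.419) and Olfr1490 (0.870) because the value that stood apart was left out. Gphb5 was near the threshold in the main F-test (adjusted p = 0.0487, limma) and lost its call under 6 of 20 alternatives. In the comparison of T2134, Gm4736, Chia1, Klk1b8, Bpifb1, Olfr1490, Lelp1 and Olfr1453 were called under every alternative run, and Klk1b5, Chil5, Gfap, Orm2 and Olfr857 were not. No result reversed its direction. Without signal intensities, dim probes could not be set apart, and the single array of T2134 limits every value that rests on it.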

Other observations

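Other gland genes were high in T172, where the 6 genes were not, apart from the second array for Dnase1. Klk1b11, a glandular kallikrein, had 3.30 and 2.38 on the second and first array of T172 and -2.67 to -0.50 in the other 11 tumours (difference 4.65 ± 0.59, SE, adjusted p = 0.00649, limma). Klk1b16 had -0.11 and 0.59 on these arrays, against -3.39 to -2.40 in the others (3.14 ± 0.37, adjusted p = 0.00418). Scgb1b27, a secretoglobin of the androgen-binding protein family, had 4.28 and 2.08, against -0.53 to 0.72 (3.14 ± 0.36, adjusted p = 0.00404); without the second array its adjusted p was 0.0651, and the F-test between tumours, which counts the spread between paired arrays, did not call it (adjusted p = 0.101, limma). Over all genes 0.0533% were called higher in T172. These comparisons share tumours with that of T2134, and whether T172 and T2134 differ in kallikreins was not tested. All 3 genes were at -2.62 to 0.72 in T2134.

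Some further genes of the gland lists had their highest values in T172 and T284, above T2134. Cldn10 had 3.92 in T172 and 3.40 in T284, and the next tumour, T221, had 0.06. Scgb2b27 had 4.46 in T172, 4.38 in T284, 2.80 in T646 and 1.91 in T2134. Etv1, a transcription factor, had 2.96 in T172, 2.66 in T284 and -0.33 in T2134. All 3 were called between tumours by the F-test (adjusted p = 5.6e-05, 7.8e-05 and 0.000108, limma).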
